A study of Mus musculus with 8 samples.

Results

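The genes described here carry sterol out of cells and remodel high-density lipoprotein (HDL). They are Abca1, Abcg1, Abcg5, Abcg8, Scarb1, Lcat, Pltp, Apom, Pon1 and Lrp1, taken as the rows of the deposited table that bear these symbols. All 10 members were found among the 21358 genes of the table, and all 10 were among the 9867 genes tested. The tissue was mouse liver, collected after 22 weeks of fasting every other day in a model of metabolic dysfunction. SG denotes starvation glucose (replicates 101, 103, 104 and 105) and FG denotes feeding glucose (replicates 93, 94, 95 and 96), with 4 libraries in each group. Both groups share the fasting regimen, and the labels name no untreated group, strain, sex, age, diet, dose of glucose or hour of collection. The series text counts 4 mice per group, but the labels do not state that each library is a separate animal. The p-values therefore set each group difference against the spread between these libraries, which may be technical. Comparing SG with FG asks how the liver differed when glucose was taken in the starved rather than the fed state.

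HDL forms when the transporter ABCA1 loads phospholipid and cholesterol onto apolipoprotein A-I. Lecithin-cholesterol acyltransferase (LCAT) then esterifies the cholesterol, and phospholipid transfer protein (PLTP) moves phospholipid between particles and reshapes them. Apolipoprotein M (APOM), which carries sphingosine 1-phosphate, and paraoxonase 1 (PON1), a lactonase, circulate on HDL. In the liver the receptor SR-BI, encoded by Scarb1, takes up cholesteryl ester from HDL, and the ABCG5-ABCG8 heterodimer secretes sterol into bile.

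Apom and Lcat rose and Pltp fell in SG livers, while the 4 transporters, both receptors and Pon1 did not pass the test. Apom averaged 337 ± 54.1 FPKM in SG livers and 175 ± 9.97 FPKM in FG livers. Lcat averaged 287 ± 8.64 FPKM in SG livers and 236 ± 12.1 FPKM in FG livers. Pltp averaged 22.1 ± 3.19 FPKM in SG livers and 41.1 ± 15.9 FPKM in FG livers (SD, n = 4 in each group throughout). FPKM, made by the authors, is the number of fragments per kilobase of gene, scaled by the library's counted total. The test was limma on log2(FPKM + 1), with Benjamini-Hochberg adjustment of the p-values of all 9867 genes and calls made below 0.05. Differences are SG minus FG on that scale, and SE is limma's moderated standard error.

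Of the 10 members 3 (30%) were called, beside 19.4% of all genes tested. Higher calls made up 2 of the 10 (3.73% of all tested genes were higher) and lower calls 1 of the 10 (15.6% of all tested genes were lower). This background depended on scaling: after median-ratio scaling 545 of all tested genes were higher and 499 lower, instead of 368 higher and 1544 lower, and 2 members were higher and 0 lower. The groups did not overlap for 4 members, which were Apom, Lcat, Pltp and Scarb1, and such separation was seen for 26.1% of all tested genes (4.35% with SG higher and 21.8% with SG lower). The median difference of the 10 members was -0.14, and that of all tested genes was also -0.14. Median-ratio scaling between libraries moved the median of all tested genes to 0.006, so each called member is also given as its distance from that median.

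**Figure D1:**
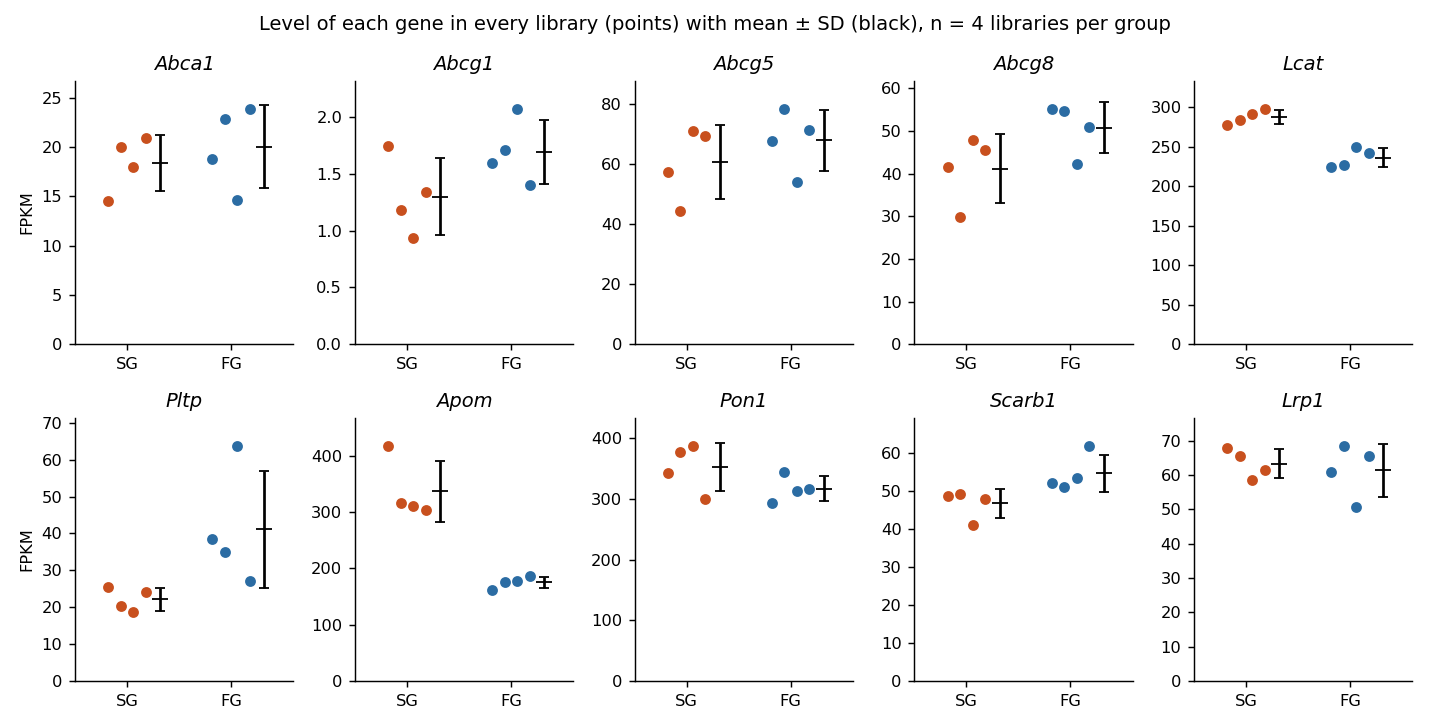
FPKM (y axis, from 0) of the 10 genes in each SG library (orange, left) and each FG library (blue, right), points in order of replicate number, with the mean ± SD in black. The SG and FG points do not overlap for Lcat, Pltp, Apom and Scarb1, and they overlap for the other 6 genes.

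Because Abcg5 and Abcg8 lie head to head, the stretch between them is shown as the region that both genes share. The stretches in front of Lcat and Pltp, and 30 bases in front of Apom, are shown because these 3 genes were called. All are from RefSeq's promoter table for GRCm38.p6, which held 8 of the 10 members. Capitals mark matches on either strand. The letters searched were AGATAA for a GATA site, TATAAA for a TATA box, CCAAT for a CCAAT box, GGGCGG for a GC box and CACGTG for an E-box. Also searched was the core of a DR1 repeat of the kind bound by HNF4A, which is GGTCA followed after 2 bases by GGTC.
Abcg5-Abcg8, chr17:84683012-84683120, plus strand: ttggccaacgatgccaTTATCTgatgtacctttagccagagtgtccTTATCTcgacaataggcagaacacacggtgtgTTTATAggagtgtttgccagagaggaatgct
Lcat, chr8:105943403-105943589, minus strand: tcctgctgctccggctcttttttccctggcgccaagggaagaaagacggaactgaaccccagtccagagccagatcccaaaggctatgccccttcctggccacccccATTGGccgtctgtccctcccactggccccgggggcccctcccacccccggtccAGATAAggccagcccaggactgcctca
Pltp, chr2:164857712-164857958, minus strand: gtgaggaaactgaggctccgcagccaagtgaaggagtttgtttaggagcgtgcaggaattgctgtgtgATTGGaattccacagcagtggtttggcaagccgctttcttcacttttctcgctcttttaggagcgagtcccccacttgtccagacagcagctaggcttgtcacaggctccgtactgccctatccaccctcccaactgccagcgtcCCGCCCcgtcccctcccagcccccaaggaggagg
Apom, chr17:35131812-35131841, minus strand: aggttaaagGGTCAAGGGTCgaggcgaggg

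The 109 bases between Abcg5 and Abcg8 held 2 matches to AGATAA and 1 to TATAAA, with no annotated exon in between. Over 250 bases before every start in the table, 9.99% of 32851 promoters held at least 1 AGATAA and 12.4% at least 1 TATAAA. These windows are longer than the 109 bases, so the shares do not say how unusual that stretch is. CCAAT, matched in front of Lcat and Pltp, occurred in 33.8% of promoters, and GGGCGG, matched in front of Pltp, in 32.7%. The DR1 core was found in front of Apom and of none of the other 7 members searched (Abcg1 and Scarb1 were not), beside 0.301% of promoters, and was searched after the sequence had been read. In GENCODE these 30 bases in front of Apom touch 1 annotated exon, so they may be transcribed there. The letters AGGTCA and their DR4 repeat, with 4 bases between copies, the form bound by the sterol receptor LXR, were in none of the windows of the 8 members, beside 14.0% and 0.0152% of promoters. An exact DR4 is so rare that it was unlikely to occur in 8 members, so its absence does not show that they lack LXR sites. A match describes letters and not binding.

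Apom had 418, 316, 312 and 303 FPKM in SG livers, against 162, 175, 177 and 187 FPKM in FG livers. Every SG library lay above every FG library, and SG 101 stood above the other SG libraries. The difference was 0.93 (SE 0.114, adjusted p = 0.00231), or 1.06 above the all-gene median, and the ratio of the means was 1.92. Without SG 101 it was 0.82 (adjusted p = 0.00136), and the call held in all 17 alternative fits. Apom lies on chromosome 17 between 35128997 and 35131801 (RefSeq gene bounds on GRCm38.p6, as for the other members). Its values rested on 4748 to 12524 fragments per library.

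Lcat had 277, 284, 291 and 297 FPKM in SG livers, against 225, 227, 250 and 242 FPKM in FG livers. The groups were separated, and the coefficient of variation was 3.01% in SG and 5.15% in FG, the smallest of the 10 members in each group. The difference was 0.28 (SE 0.074, adjusted p = 0.0298), or 0.42 above the all-gene median, with a ratio of means of 1.22. The call was lost in 6 of the 8 fits without 1 library (FG 93, FG 94, FG 96, SG 103, SG 104 or SG 105), with adjusted p up to 0.0871, and after quantile normalization (adjusted p = 0.0977). Lcat lies on chromosome 8 between 105939551 and 105943402.

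Pltp had 25.5, 20.3, 18.7 and 24.1 FPKM in SG livers, against 38.5, 35, 63.8 and 27.1 FPKM in FG livers. All SG libraries were below all FG libraries, the nearest being SG 101 and FG 96, and FG 95 was the highest. The difference was -0.80 (SE 0.229, adjusted p = 0.0385), or -0.67 from the all-gene median, and the ratio of the means was 0.539. Without FG 95 the difference was -0.57 (adjusted p = 0.047). The call was lost without FG 93, FG 94, SG 103, SG 104 or SG 105 (adjusted p up to 0.0969) and with no filter on low values (0.104). It was also lost when libraries were rescaled, by median ratios (-0.63, adjusted p = 0.11), by trimmed means (-0.64, adjusted p = 0.113) or by quantiles (-0.68, adjusted p = 0.0861). The gene, on chromosome 2 between 164839518 and 164857708, overlaps Ctsa, and the sources used here do not give whether reads were counted by strand. Ctsa had a difference of 0.04 and did not pass (adjusted p = 0.786).

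Pon1 (chromosome 6, 5168090 to 5193987) had 343, 378, 388 and 301 FPKM in SG livers, against 294, 345, 314 and 316 FPKM in FG livers. The groups overlapped, with SG 101 and SG 105 inside the FG range. The difference was 0.15 (95% interval -0.08 to 0.37, adjusted p = 0.328). Its paralogs Pon3 and Pon2 follow it on chromosome 6 and both fell. Pon2, an intracellular lactonase, had 18.2, 23.0, 21.9 and 18.7 FPKM in SG livers, against 30.7, 27.9, 28.0 and 26.9 FPKM in FG livers (difference -0.46, adjusted p = 0.0154). Pon3, named after its values were seen, averaged 16.4 ± 3.06 FPKM in SG livers and 23.3 ± 2.89 FPKM in FG livers (difference -0.49, adjusted p = 0.0389). After median-ratio scaling neither call remained, and the difference between paralogs was not tested.

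**Figure D2:**
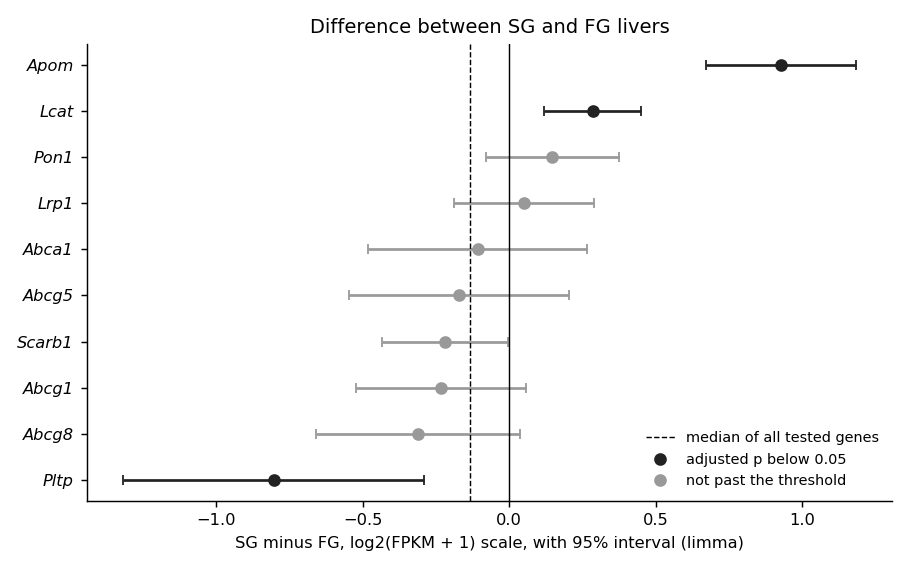
Difference in log2(FPKM + 1) between SG and FG (x axis, positive where SG was higher) for the 10 genes, with limma's 95% interval (bars), in black where the adjusted p was below 0.05. Apom and Lcat lie to the right of 0 and Pltp to the left, and the dashed line marks the median of all tested genes at -0.14.

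None of the 4 sterol transporters was called. Abca1 (chromosome 4, 53030789 to 53159988) had 14.5, 20.0, 18 and 20.9 FPKM in SG livers, against 18.8, 22.9, 14.6 and 23.8 FPKM in FG livers. The groups overlapped over most of their range, and the difference was -0.11 (95% interval -0.48 to 0.27, adjusted p = 0.673). Its sign turned with scaling, to 0.058 after median-ratio scaling.

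Abcg1, which passes cholesterol on to mature HDL, lies on chromosome 17 between 31057694 and 31117984. It was the lowest of the members, with 1.74, 1.18, 0.933 and 1.34 FPKM in SG livers, against 1.59, 1.70, 2.07 and 1.40 FPKM in FG livers. It rested on 204 to 505 fragments per library and lay near the filter of 1 FPKM. The difference was -0.23 (95% interval -0.52 to 0.06, adjusted p = 0.226), a scale on which changes at this level are understated. With a pseudocount of 0.1 it was -0.38 (adjusted p = 0.23), and with limma voom on recovered counts -0.40 (adjusted p = 0.195). In macrophages ABCG1 is abundant, and the summed level of 12 macrophage markers was 203 to 386 FPKM in SG livers and 237 to 365 FPKM in FG livers.

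Abcg5 (chromosome 17, 84658174 to 84683011) had 57.2, 44.4, 71.0 and 69.3 FPKM in SG livers, against 67.7, 78.1, 53.9 and 71.2 FPKM in FG livers. Abcg8 (chromosome 17, 84676302 to 84700333) had 41.5, 29.8, 47.9 and 45.7 FPKM in SG livers, against 55.1, 54.8, 42.4 and 51.0 FPKM in FG livers. In both genes SG 103 was the lowest SG library and FG 95 the lowest FG library, and the groups overlapped. Neither was called, with differences of -0.17 (95% interval -0.55 to 0.20, adjusted p = 0.491) for Abcg5 and -0.31 (95% interval -0.66 to 0.04, adjusted p = 0.183) for Abcg8.

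Dividing one by the other within a library gave values that spread less than the level of either gene. The Abcg8/Abcg5 ratio of FPKM was 0.725, 0.67, 0.676 and 0.659 in SG livers, against 0.815, 0.701, 0.786 and 0.717 in FG livers. The coefficient of variation of the ratio was 4.32% in SG and 7.19% in FG, beside 20.4% in SG and 15.0% in FG for Abcg5 and 19.6% in SG and 11.7% in FG for Abcg8. SG 101 lay inside the FG range and the other SG libraries below it. The mean log2 ratio differed by -0.14 (exact two-sided permutation p = 0.0857, adjusted p = 0.214 over the 10 ratios computed). A second annotated start of Abcg8, at 84676302, lies within Abcg5, so the genes overlap.

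**Figure D3:**
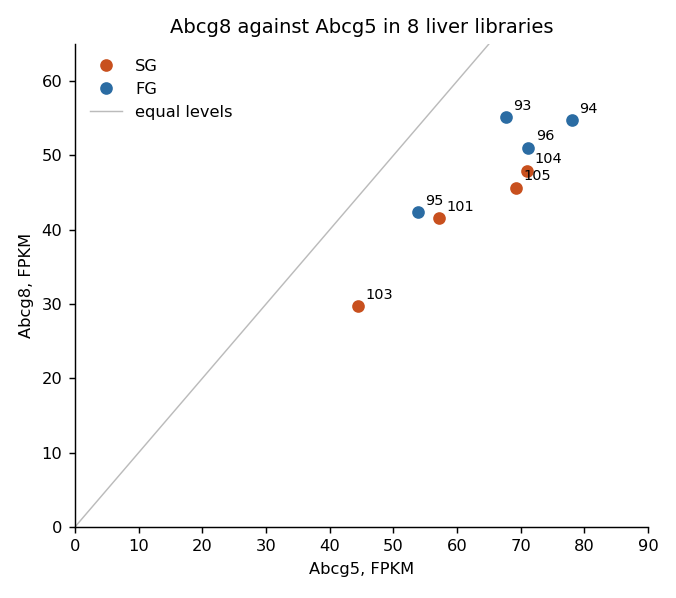
Abcg8 (y axis) against Abcg5 (x axis), both in FPKM from 0, with 1 point per library, numbered by replicate (SG orange, FG blue), and a grey line of equal levels. All 8 points lie below the line, from SG 103 at the low end to FG 94 at the high end of Abcg5, with SG and FG points interleaved.

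Scarb1 (chromosome 5, 125277087 to 125341094) had 48.6, 49.1, 41.0 and 47.8 FPKM in SG livers, against 52.0, 51.0, 53.4 and 61.7 FPKM in FG livers. Every SG library was below every FG library, but the difference of -0.22 (95% interval -0.43 to -0.01) did not pass after adjustment (adjusted p = 0.132). After median-ratio scaling it was -0.048 (adjusted p = 0.807). Scarb1 is also expressed in sinusoidal endothelium, and the summed level of 10 endothelial markers was 109 to 123 FPKM in SG livers and 137 to 165 FPKM in FG livers. Of the 10 markers 2 fell and none rose, beside 15.6% lower among all tested genes. The gap between the sums lay mainly in these 2, with Clec4g at 34.7 FPKM in SG livers and 51.6 FPKM in FG livers and Fcgr2b at 27.1 FPKM in SG livers and 33.3 FPKM in FG livers on average, while Lyve1 averaged 3.50 FPKM in SG livers and 2.26 FPKM in FG livers. Their part in the Scarb1 and Pltp values was not tested, and in whole liver fewer cells of a type cannot be told apart from less RNA per cell.

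Lrp1, a large endocytic receptor that clears lipoprotein remnants and proteinase complexes, lies on chromosome 10 between 127538157 and 127621148. It had 67.8, 65.5, 58.5 and 61.3 FPKM in SG livers, against 60.7, 68.4, 50.7 and 65.4 FPKM in FG livers. The SG values fell inside the FG range, and the difference was 0.05 (95% interval -0.19 to 0.29, adjusted p = 0.762). Lrpap1, the chaperone that keeps ligands off LRP1 during folding, averaged 12.7 ± 1.20 FPKM in SG livers and 15.9 ± 1.08 FPKM in FG livers (difference -0.30, adjusted p = 0.0518). The Lrp1/Lrpap1 ratio of FPKM was 4.94, 4.75, 4.93 and 5.32 in SG livers, against 3.72, 4.50, 2.95 and 4.42 in FG livers. The groups did not overlap, but the p was the smallest that 70 assignments of 4 and 4 libraries can give (exact two-sided permutation p = 0.0286), and the adjusted p was 0.143.

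Among members, levels per length ran in the same order in both groups except for 2 pairs of neighbours, Apom with Lcat and Lrp1 with Abcg5, which changed places. In SG livers Pon1 and Apom led with 352 ± 39.4 and 337 ± 54.1 FPKM, which did not differ beyond their spread, followed by Lcat. In FG livers Pon1 led with 317 ± 21.0 FPKM, followed by Lcat and then Apom. Lrp1, Abcg5, Scarb1 and Abcg8 lay between 41.2 and 63.3 FPKM in SG and between 50.8 and 67.7 FPKM in FG, and the ranges of neighbours over libraries overlapped in each group. In SG, however, the mean of Abcg5 (60.5 ± 12.3 FPKM) lay above the highest Scarb1 library (49.1 FPKM). Pltp, Abca1 and Abcg1 followed in that order in both groups.

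The members' levels were next set against apolipoprotein A-I, the main protein of HDL. Apoa1 rose, with 7993, 8380, 8160 and 9530 FPKM in SG livers, against 4887, 6547, 6930 and 6913 FPKM in FG livers (difference 0.44, adjusted p = 0.0447). Every SG library lay above every FG library, but the call was lost in all 8 fits without 1 library (adjusted p up to 0.102) and with no filter on low values (adjusted p = 0.266). The Pltp/Apoa1 ratio was lower in SG than in FG in all 4 against 4 libraries, with a mean log2 ratio of -8.53 ± 0.203 in SG and -7.29 ± 0.545 in FG (exact two-sided permutation p = 0.0286, adjusted p = 0.143). The Apom/Apoa1 ratio differed by 0.49 (exact permutation p = 0.0571, adjusted p = 0.19) and the Lcat/Apoa1 ratio by -0.16 (exact permutation p = 0.143, adjusted p = 0.238). The Pon1/Apoa1 ratio differed by -0.29 (exact permutation p = 0.114, adjusted p = 0.229). A plain ratio of FPKM within a library does not depend on scaling between libraries. The tested log2 ratios add a pseudocount of 1, so those with a low gene such as Abcg1 do depend on it. With that pseudocount none of the 10 passed adjustment (2 had an unadjusted p under 0.05). As the exact p cannot fall below 0.0286, a fully separated ratio passes adjustment only if most of the 10 are separated too. The adjusted values therefore cannot decide whether a single ratio differed.

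Other genes of the pathway were described from 9 lists holding 120 genes, of which 103 were tested. In SG 6 rose and 20 fell (25.2% called, beside 19.4% of all tested genes), and their median difference was -0.14. After median-ratio scaling all 6 remained higher and 5 of the 20 remained lower (Abcb11, Cd36, Lrp4, Scd1 and Srebf1). Leaving out 1 library kept 3 or 4 of the higher and 7 to 19 of the lower calls. Those called in all 8 such fits were Gpld1, Sdc1 and Slc27a2 among the higher and Abcb11, Cd36, Lrp4, Pon2, Scd1 and Srebf1 among the lower genes.

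Of 22 tested HDL apolipoproteins and HDL-borne proteins 3 rose and 4 fell, with a median of 0.02. Gpld1, an HDL-borne phospholipase that cleaves lipid anchors, had 86.1, 75.5, 67.8 and 75.7 FPKM in SG livers, against 39.9, 48.7, 46.5 and 56.5 FPKM in FG livers (difference 0.67, adjusted p = 0.00838). Saa4, a constitutive serum amyloid A named after its values were seen, rose by 0.45 (adjusted p = 0.0391). Apoa4, an apolipoprotein of intestine and, in mice, liver, fell by 1.09 (adjusted p = 0.0255), with 175 to 417 FPKM in SG livers and 451 to 722 FPKM in FG livers. Pcyox1, a prenylcysteine oxidase, fell by 0.42 (adjusted p = 0.0254). Apoa2 averaged 4004 ± 399 FPKM in SG livers and 3940 ± 185 FPKM in FG livers (adjusted p = 0.908), and Apoe averaged 5896 ± 565 FPKM in SG livers and 7177 ± 304 FPKM in FG livers (adjusted p = 0.0661).

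Of 10 genes for HDL lipases, docking and uptake 2 rose and 3 fell, with a median of -0.08. Pdzk1, the adaptor that holds SR-BI at the hepatocyte surface, had 19.1, 15.2, 16.0 and 11.6 FPKM in SG livers, against 23.1, 21.0, 24.0 and 21.2 FPKM in FG livers (difference -0.52, adjusted p = 0.0307). The Scarb1/Pdzk1 ratio did not differ beyond the spread between libraries (difference of the log2 ratio 0.30, exact permutation p = 0.171, adjusted p = 0.245). Lipg, endothelial lipase, had 2.06 to 6.77 FPKM in SG livers and 6.75 to 16.0 FPKM in FG livers (difference -1.24, adjusted p = 0.0331). Cd36, a scavenger receptor related to SR-BI, fell by 1.45 (adjusted p = 0.00825). Slc27a2, a fatty acid transport protein, rose by 0.76 (adjusted p = 0.00574). Lipc, hepatic lipase, averaged 40.0 ± 9.37 FPKM in SG livers and 53.4 ± 1.56 FPKM in FG livers and did not pass (adjusted p = 0.0899).

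Of 7 tested other ABCA and ABCG transporters 2 fell and none rose, with a median of -0.33. Abca2 fell by 0.64 (adjusted p = 0.0255) and Abca3, a phospholipid transporter, by 0.60 (adjusted p = 0.0191). Of 5 tested genes of bile lipid secretion 1 fell. This was Abcb11, the bile salt export pump, with 52.2, 61.6, 48.4 and 43.6 FPKM in SG livers, against 117, 99.3, 99.8 and 89.9 FPKM in FG livers (difference -0.97, adjusted p = 0.00235). Abcb4, the phospholipid floppase that works beside ABCG5-ABCG8 in the canalicular membrane, averaged 63.6 ± 15.3 FPKM in SG livers and 71.6 ± 10.5 FPKM in FG livers (adjusted p = 0.471). The Abcg5/Abcb4 ratio differed by 0.02 (exact permutation p = 0.971, adjusted p = 0.971).

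Of 15 sterol-sensing regulators 3 fell and none rose, with a median of 0.01. Nr1h3, which encodes LXR-alpha, had 41.2, 36.7, 35.9 and 34.1 FPKM in SG livers, against 49.5, 42.7, 47.7 and 45.8 FPKM in FG livers (difference -0.32, adjusted p = 0.0341). Nr1h2, LXR-beta, fell by 0.38 (adjusted p = 0.035) and the coactivator Ncoa1 by 0.40 (adjusted p = 0.0231). After median-ratio scaling none of these 3 calls remained (Nr1h3 -0.15, adjusted p = 0.284). Of 10 tested LXR targets outside the members 3 fell, which were Scd1, Srebf1 and Nr1h3 itself, and the median was -0.31. Srebf1 had 15.8 to 51.6 FPKM in SG livers and 68.6 to 107 FPKM in FG livers (difference -1.58, adjusted p = 0.011). Among the members, textbook LXR targets had differences of -0.11 for Abca1, -0.23 for Abcg1, -0.17 for Abcg5, -0.31 for Abcg8 and -0.80 for Pltp. With a pseudocount of 0.1 Abcg1 differed by -0.38. Only Pltp was called, and the all-gene median was itself -0.14. Rescaling by median ratios gave 0.058 for Abca1, -0.13 for Abcg1, 0.00094 for Abcg5, -0.14 for Abcg8 and -0.63 for Pltp. None of them was then called (limma adjusted p = 0.11 for Pltp). The part of LXR in these values was not tested.

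**Figure D4:**
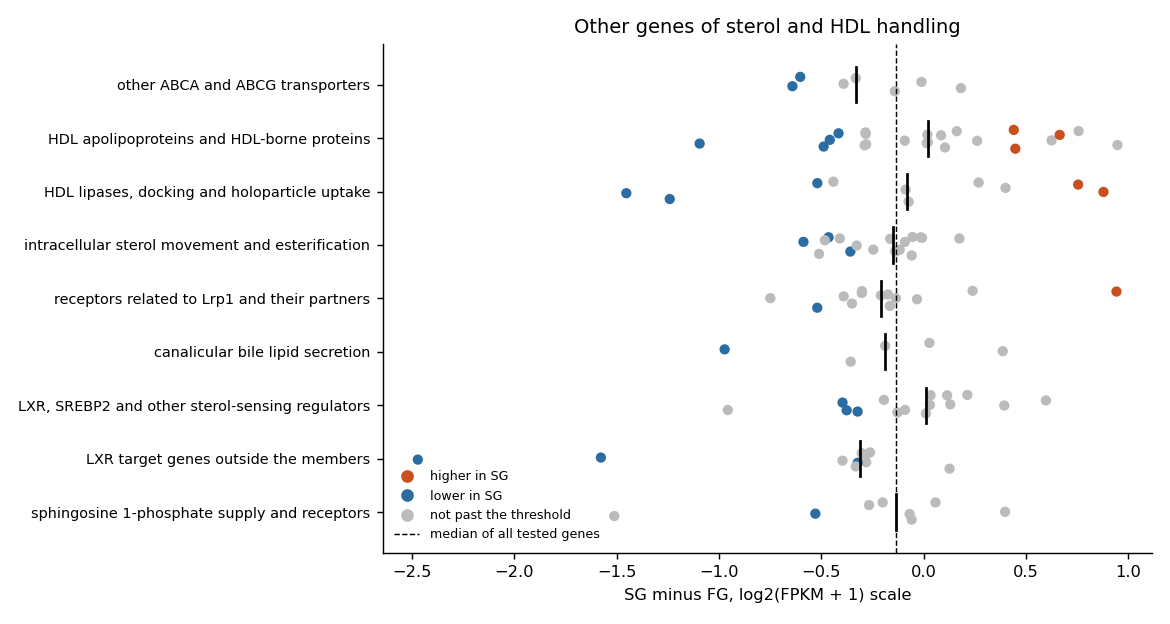
Difference in log2(FPKM + 1) between SG and FG (x axis, positive where SG was higher) for each tested gene of the 9 lists (rows), orange where higher and blue where lower in SG at adjusted p below 0.05, grey otherwise, with each list's median as a black bar. Called genes are spread over all 9 lists, and the dashed line marks the median of all tested genes at -0.14.

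Of 18 tested genes of intracellular sterol movement and esterification 3 fell and none rose, with a median of -0.15. Soat2, which makes cholesteryl ester in hepatocytes, had 15.7, 16.4, 20.9 and 13.4 FPKM in SG livers, against 25.6, 22.9, 29.3 and 23.2 FPKM in FG livers (difference -0.59, adjusted p = 0.0204). Osbp, an oxysterol-binding exchanger, fell by 0.46 (adjusted p = 0.0209) and Stard3, an endosomal cholesterol carrier, by 0.36 (adjusted p = 0.0415). Of 13 tested genes for receptors related to Lrp1 and their partners 1 rose and 1 fell, with a median of -0.21. Sdc1, a heparan sulfate proteoglycan that binds remnants, rose by 0.94 (adjusted p = 0.0133) and Lrp4 fell by 0.52 (adjusted p = 0.0133). Of 8 tested genes for sphingosine 1-phosphate, the lipid that APOM carries, only S1pr1 was called. This receptor, abundant in endothelium, fell by 0.53 (adjusted p = 0.0329). The endothelial markers are given with Scarb1, and their part in the S1pr1 value was not tested.

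Libraries held 36545128 to 41977438 counted fragments, read back from the step sizes in the FPKM columns. Hepatocyte markers summed to 59674 to 78724 FPKM in SG livers and 57182 to 67715 FPKM in FG livers. These 10 markers include Apoa1, so their sum is not independent of its rise. Apoa1 was the only 1 of them called higher and none was lower, beside 3.73% higher and 15.6% lower among all tested genes. Cholangiocyte markers summed to 13 to 19.1 FPKM in SG livers and 21.9 to 27.7 FPKM in FG livers, with Krt7, Epcam and Sox9 each averaging under 1 FPKM. Most of that sum was Spp1, which is not specific to these cells and averaged 12.4 ± 2.43 FPKM in SG livers and 19.0 ± 2.50 FPKM in FG livers, with overlapping groups. Of the 2 cholangiocyte markers tested 1 was called lower in SG and none higher, beside 15.6% lower among all tested genes. Sox9 averaged 0.687 FPKM in SG livers and 0.519 FPKM in FG livers, the other way. The part of these cells in the results was not tested. No pair of libraries within a group held identical values or agreed within counting noise.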

How the data were processed

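Liver RNA of 8 libraries was analysed. TRIzol was used for RNA isolation, and enriched mRNA was sequenced as read pairs, per the labels' protocols. The submitters' processing notes list the tools fastp, HISAT2, HTSeq and DESeq2, and the builds GRCm38 and mm10. The authors deposited FPKM for 21358 genes, with 1 column per library, each matched to a sample by label.

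Genes with at least 1 FPKM in at least 4 libraries (9867) were tested with limma 3.58.1 in R 4.3.3 on log2(FPKM + 1), using a linear model with empirical Bayes moderation, a mean-variance trend, all 8 libraries and no covariates. Adjustment was by Benjamini-Hochberg. Ratios of 2 genes used exact two-sided permutation tests (scipy 1.17.1) over 70 assignments, whose smallest p is 0.0286. Fragment counts were recovered as whole multiples within a tolerance of 0.02 for 100% of genes, and total counts were fixed by union exon lengths of 560 genes in GENCODE vM21. The script was tested on simulated data.

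The members and lists were chosen with earlier results of these data known, and no test was made over a list. All members were named, with, per list, up to 4 called genes of smallest p, the 2 uncalled genes of highest mean (given only where informative), and the genes of the ratios. Values of some genes and of 1 ratio that this rule covers are not reported here. Alternatives covered the pseudocount (0.1), filter, scaling, variance model and each library left out. A limma voom fit on recovered counts and a minimum of 1.5-fold were added after the data were seen. No library was left out of the main comparison.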

Additional observations from a re-analysis of the deposited data

Results flagged for a closer look

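In 8 of the 118 groups of 4 values examined, 1 library stood far from the other 3. Chance alone flags about 1 in 20 such groups. Among the members, Apom in SG 101 was 418 FPKM against 303 to 316 FPKM in the other SG libraries, and Scarb1 in SG 104 was 41.0 FPKM against 47.8 to 49.1 FPKM. Of the other genes, Abca6 in SG 101 was 35.7 FPKM against 45.6 to 47.4 FPKM, Sdc1 in SG 105 was 122 FPKM against 62.1 to 69.8 FPKM, Apoa4 in FG 94 was 722 FPKM against 451 to 467 FPKM, and Hnf4a in FG 94 was 105 FPKM against 131 to 134 FPKM. Among log2 ratios, Abcg1/Abca1 in SG 101 was -2.50 against -3.30 to -3.23, and Lcat/Apoa1 in FG 93 was -4.44 against -4.85 to -4.79.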

How the results depend on the processing

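Of 1068 values recomputed over 18 alternatives, 827 kept their direction and side of the threshold, 130 lost and 10 gained a call, 40 changed sign and 61 counts or values moved. All 17 alternative fits kept the call of Apom. The cause of the changes below was not tested, except that leaving out a library also leaves fewer samples. Genes called numbered 1133 (219 higher, 914 lower) with no filter on low values. They numbered 1044 (499 lower) after median-ratio scaling, 1036 (510 lower) after trimmed-mean scaling and 1078 (616 lower) after quantile normalization. With 1 library left out they numbered 834 to 2363 (181 to 467 higher, 653 to 1896 lower), lowest without FG 93 and highest without SG 101. Members called lower in SG numbered 0 under no filter and under each of the 3 scalings. After quantile normalization 1 member was called (1 higher), and with a minimum of 1.5-fold 1 was higher. Leaving out 1 library gave 1 to 3 members called (1 to 2 higher, 0 to 1 lower). Signs turned after median-ratio scaling for Abca1 (0.058), Abcg5 (0.00094), Abca6 (0.16), Abcg2 (0.029), Scarb2 (0.084), Scp2 (0.17) and Cers2 (0.11). They turned after trimmed-mean scaling for Abca1 (0.051), Abca6 (0.15), Abcg2 (0.022), Scarb2 (0.077), Scp2 (0.16) and Cers2 (0.099), and after quantile normalization for Abca1 (0.035), Abca6 (0.076), Apoa2 (-0.074) and Scarb2 (0.0046). With 1 library left out, differences that crossed 0 ranged from -0.036 to 0.11 for Lrp1, -0.15 to 0.083 for Abca6, -0.037 to 0.11 for Abcc2, -0.28 to 0.0076 for Abcg2, -0.018 to 0.093 for Apoa2, -0.051 to 0.14 for Hnf4a and -0.076 to 0.050 for Scp2. Log2 ratios likewise ranged from -0.32 to 0.075 for Abcg1/Abca1 and -0.17 to 0.28 for Abcg5/Abcb4. No paired analysis was possible because SG and FG share no replicate number. Among the members Abcg1 rested on the fewest fragments, at 204 to 505 per library.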

Other observations

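For each called member, the 3 tested genes with the most similar profile over the 8 libraries were listed by Pearson's r on log2(FPKM + 1), as a description without a test. All points share the split into SG and FG, so a gene that differs between the groups tends to score high. For Apom they were Fdx1 (r = 0.985), Tfr2 (0.98) and Clec2h (0.979). Clec2h was low, at 2.35 FPKM in SG livers and 0.346 FPKM in FG livers on average, the latter under the filter of 1 FPKM. For Lcat they were Ces2a (0.978), Enpp2 (0.972) and Tk1 (0.969). For Pltp they were Tagln2 (0.978), Txnrd3 (0.977) and Mcm6 (0.974), of which Tagln2 and Mcm6 were not called between SG and FG.

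On the chromosome, tested genes next to Apom were Gm20522 and D17H6S53E before it and Bag6 and Prrc2a after it, and none was called. Bag6 had a difference of -0.11 and D17H6S53E of -0.25 (limma adjusted p = 0.488 and 0.0801). Slc12a4, whose nearest annotated base is 188 positions from that of Lcat, fell by 0.65 (limma adjusted p = 0.011), whereas Lcat rose. Tff3, the tested gene next to Abcg1, averaged 5.19 FPKM in SG livers and 0.821 FPKM in FG livers (limma difference 1.57, adjusted p = 0.0302). Its FG mean lay under the filter of 1 FPKM, where the log2(FPKM + 1) scale understates changes. These neighbours were named after their values were seen.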
